A study of Mus musculus with 14 samples.

Results

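The miR-106b-25 and miR-106a-363 clusters are 2 of the 3 paralogous microRNA (miRNA) clusters of the miR-17 type in the mouse genome, the third being the miR-17-92 cluster. The 9 lines described here were chosen by name from a table of 1250 mature miRNA lines. They are the 6 mature arms of the miR-106b-25 cluster (mmu-miR-106b-5p, mmu-miR-106b-3p, mmu-miR-93-5p, mmu-miR-93-3p, mmu-miR-25-3p and mmu-miR-25-5p) and 3 arms of the miR-106a-363 cluster (mmu-miR-106a-5p, mmu-miR-20b-5p and mmu-miR-363-3p). All 9 were found, and the species prefix is left out from here on. Small RNA libraries had been made from 4 groups of mouse samples with bone marrow as their source and excised bone as the labelled tissue. These were 4 exosome libraries of stimulated macrophages, whose titles name the cytokine IL4, 4 exosome libraries of control (wild type) macrophages, 3 cell lysates of stimulated (IL4) macrophages and 3 cell lysates of control (wild type) macrophages. Exosomes are small vesicles that cells release, here isolated from conditioned medium by density gradient, and IL4 is a cytokine known for switching macrophages to an alternative, repair-associated activation. The labels used here give no strain, age, IL4 dose or duration. They also leave unstated which replicates had an animal or a culture of their own, so every p-value here refers to variation among the libraries as sequenced, and that variation may be technical. Values in a row below follow the replicate numbers.

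As background, a miRNA gene is transcribed, cut to a hairpin and then to a short duplex, of which 1 arm (the guide) is usually kept in the silencing complex and the other (the passenger) is mostly degraded. A miRNA finds its target messages mainly through its seed, bases 2 to 8. The miR-17 type clusters are known for promoting cell cycle entry and survival, by repressing the cell cycle inhibitor Cdkn1a and the death factor Bcl2l11, and are high in proliferating blood progenitors. Mcm7, the gene that hosts the miR-106b-25 cluster, encodes a subunit of the helicase that unwinds DNA for replication.

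The mature sequences show why the 9 lines fall into families and which of them can share reads. They are given 5′ to 3′ from RefSeq (GRCm38.p6), where all 9 matched by name, with the seed in capitals.
miR-106b-5p: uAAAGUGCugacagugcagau
miR-93-5p: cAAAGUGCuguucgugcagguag
miR-106a-5p: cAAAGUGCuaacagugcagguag
miR-20b-5p: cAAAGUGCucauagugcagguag
miR-17-5p (miR-17-92 cluster): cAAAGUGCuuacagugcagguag
miR-20a-5p (miR-17-92 cluster): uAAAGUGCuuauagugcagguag
miR-25-3p: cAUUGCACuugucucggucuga
miR-363-3p: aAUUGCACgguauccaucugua
miR-92a-3p (miR-17-92 and miR-106a-363 clusters): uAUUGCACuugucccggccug
miR-106b-3p: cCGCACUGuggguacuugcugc
miR-93-3p: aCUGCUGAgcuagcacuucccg
miR-25-5p: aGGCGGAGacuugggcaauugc

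The first 6 share the miR-17 seed, the next 3 the miR-25 seed, and the 3 opposite arms have a seed each of their own. With positions counted from 1 at the 5′ end, miR-106a-5p differs from miR-17-5p by 1 base, A10U, and miR-20b-5p from miR-20a-5p by 2, C1U and C10U. By edit distance to the other 1052 mature sequences with a line in the table, miR-106a-5p (nearest distance 1) and miR-20b-5p (2) were the members closest to another line. The nearest distance was 3 for miR-93-5p, 4 for miR-25-3p, 5 for miR-106b-5p and 7 or 8 for the other 4 members.

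The miR-106b-25 hairpins lie within 498 bases on chromosome 5, minus strand (GRCm38), in intron 13 of a 15-exon transcript of Mcm7 (GENCODE M21), on the strand of that gene (chr5:138165321-138165818, inside the intron chr5:138165162-138165909). The order of transcription is Mir106b, Mir93, Mir25. The hairpins are shown with both mature arms in capitals, because the arms of each hairpin are counted on separate lines.
Mir106b: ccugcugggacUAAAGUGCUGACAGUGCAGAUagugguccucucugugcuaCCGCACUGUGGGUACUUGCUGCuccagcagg
Mir93: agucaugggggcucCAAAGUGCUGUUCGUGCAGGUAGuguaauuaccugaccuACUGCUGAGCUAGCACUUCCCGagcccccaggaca
Mir25: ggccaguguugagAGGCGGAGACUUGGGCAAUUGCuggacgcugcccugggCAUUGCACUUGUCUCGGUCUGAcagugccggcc
The guide is the 5′ arm in Mir106b and Mir93 and the 3′ arm in Mir25. The miR-106a-363 cluster has 6 hairpins (Mir106a, Mir18b, Mir20b, Mir19b-2, Mir92-2 and Mir363) within 875 bases of chromosome X, minus strand (chrX:52741693-52742567). Mir106a overlaps the noncoding gene Kis2 by 5 bases, and the other 5 hairpins overlap no other annotated gene. Mir19b-2 and Mir92-2 give miR-19b-3p and miR-92a-3p, which the miR-17-92 cluster on chromosome 14 also gives, so those 2 lines cannot be assigned to either cluster.

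Total miRNA counts ran from 28417 to 411671 in exosome libraries and from 3941480 to 6792079 in lysates. A library's floor of 3 counts therefore corresponds to 7.29 to 105.6 CPM (a line's count relative to the summed counts of its library) in exosomes and to 0.442 to 0.761 CPM in lysates. Floors and intervals made from counts cover counting error only. The 6 macrophage and myeloid lines (0 of 6 at 0 counts) took 1.64% to 2.07% of counts in IL4 exosomes and 2.75% to 3.75% in control exosomes. They took 1.24% to 1.87% in IL4 lysates and 2.74% to 3.26% in control lysates, with no overlap between IL4 and control in either compartment. The lines did not move together. In lysates 2 of the 6 were called higher with IL4 and 2 lower, and in exosomes 0 of 4 tested were called. miR-223-3p averaged 8334 CPM in IL4 lysates and 22230 CPM in control lysates, and miR-142a-3p 4449 and 5245 CPM. Erythroid marker lines (miR-451a, both arms of miR-144 and the joined miR-486 line; 0 of 4 at 0 counts in any group) took 2.18% to 3.05% of counts in IL4 exosomes and 2.95% to 5.53% in control exosomes, against 0.0120% to 0.0152% in IL4 lysates and 0.0117% to 0.0211% in control lysates. The 2 endothelial lines (miR-126a), with 0 at 0 counts, took 0.410% to 1.59% and 0.686% to 2.75% in the IL4 and control exosomes, and under 0.01% in every lysate. The lymphocyte (2 lines), stromal (5) and muscle, liver and gut (5) lists, with 0 lines at 0 counts, took 0.0639% to 0.138%, 0.1499% to 0.366% and 0.214% to 0.865% in IL4 exosomes and 0.0684% to 0.187%, 0.221% to 0.407% and 0.462% to 1.36% in control exosomes. Their highest shares in a lysate were 0.00294%, 0.0408% and 0.0556%. The 7 epithelial lines (the miR-200 family, miR-203-3p and miR-205-5p), of which 0 were at 0 counts in exosomes, took 10.503% and 4.89% in the IL4 and the control exosome library of 25 January (replicate 1 of each) and at most 1.81% in any other exosome library, against at most 0.0267% in a lysate, where 1 of the 7 was at 0 counts in each group. Left out together, as chosen after seeing the data, these libraries changed no count of members called. Without them the log2 fold change of IL4 over control exosomes was -0.17 for miR-93-5p, and that of exosomes over lysates was -0.70 with IL4 and -0.77 in controls (edgeR adjusted p = 0.0178 and 0.0104).

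The miR-106b-25 cluster was well expressed in cells and exosomes alike. Its 6 lines together took 1.30% ± 0.16 of all miRNA counts in IL4 exosomes (SD, n = 4) and 1.70% ± 0.27 in control exosomes (n = 4), against 1.06% ± 0.31 in IL4 lysates (n = 3) and 1.37% ± 0.26 in control lysates (n = 3). The 3 guide arms supplied nearly all of it. miR-93-5p alone made up 41.0% of the cluster's counts in IL4 exosomes, 41.8% in control exosomes, 49.8% in IL4 lysates and 49.9% in control lysates. The order of levels was miR-93-5p, miR-25-3p, miR-106b-5p and then miR-106b-3p in all 4 groups. In lysates each of these neighbours differed in 6 of 6 libraries with no overlap between lines. In exosomes miR-93-5p and miR-25-3p overlapped, with miR-93-5p the higher in 3 of 4 IL4 libraries and 3 of 4 control libraries.

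**Figure D1:**
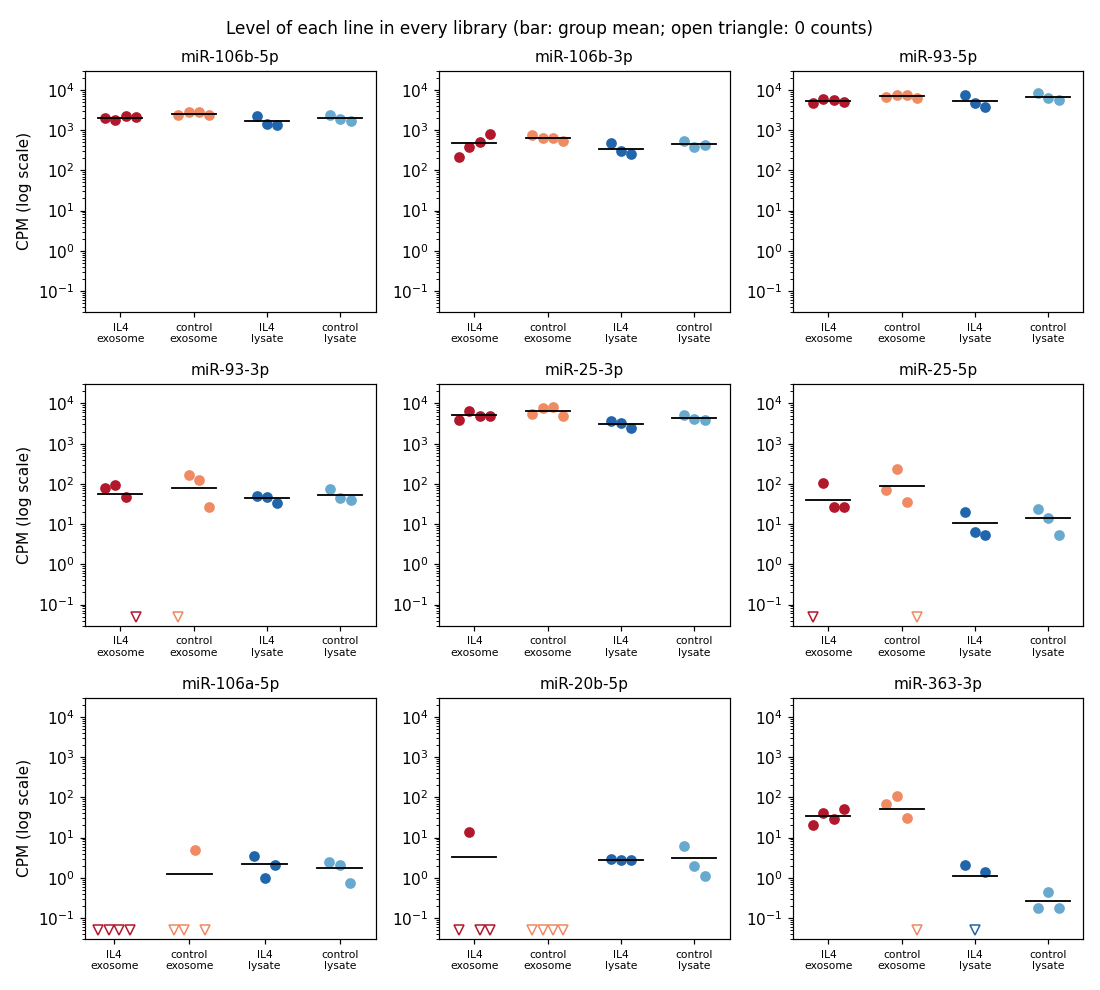
CPM (log axis) of the 9 lines in each library, by group, with a bar at the group mean and an open triangle at the foot of the panel for a library with 0 counts. The guide arms miR-93-5p, miR-25-3p and miR-106b-5p sit above 1000 CPM everywhere, whereas miR-106a-5p and miR-20b-5p have at most 1 count in an exosome library. miR-363-3p is higher in exosomes than in lysates, except in the control exosome library where it has 0 counts. At the exosome depths any count of it lies above every lysate.

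The 2 arms of Mir106b were both well counted, which was not so for the other hairpins. The ratio of miR-106b-5p to miR-106b-3p was 9.18, 4.48, 4.62 and 2.66 in IL4 exosomes and 3.00, 4.34, 4.44 and 4.40 in control exosomes. It was 4.80, 4.74 and 5.34 in IL4 lysates and 4.58, 4.91 and 3.77 in control lysates. IL4 exosome replicates 1 and 4 thus held the highest and the lowest ratio of all, from 11 and 61 counts of the 3p arm, and all 4 groups overlapped. For Mir93 the guide exceeded the passenger by 101.7 to 146-fold in IL4 lysates and by 115 to 144-fold in control lysates. For Mir25 that ratio ran from 186 to 522 in IL4 lysates and from 208 to 743 in control lysates. In exosomes miR-93-3p had 0 to 19 counts with IL4 and 0 to 25 in controls, and miR-25-5p 0 to 11 and 0 to 13, so those arm ratios rest on few reads. No difference in an arm ratio between groups passed an exact permutation test (two-sided, smallest raw p = 0.143; Benjamini-Hochberg adjusted p at least 0.518 over 29 ratio tests).

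On the X chromosome 3 lines were near the limit of detection, in different ways. miR-106a-5p, a member of the miR-17 seed family, had 0 counts in all 4 IL4 exosome libraries and 1 count in control exosome replicate 3. In IL4 lysates it had 20, 4 and 11 counts, and in control lysates 14, 14 and 4. Pooled, that is 2.34 CPM in IL4 lysates and 1.77 CPM in control lysates. The exosome groups' floors of 4.89 CPM (IL4) and 9.42 CPM (control) lie above those levels, so a level in exosomes like that in cells was not detectable at this depth. miR-20b-5p, of the same seed family, had 1 count in IL4 exosomes (replicate 2) and 0 in control exosomes. It had 17, 11 and 14 counts in IL4 lysates and 36, 13 and 6 in control lysates. Both stood far below their near-copies. In lysates miR-106a-5p had 0.0701% to 0.238% of the counts of miR-17-5p in the same library, and miR-20b-5p 0.0991% to 0.280% of those of miR-20a-5p. The abundant miR-17-5p, at an edit distance of 2, is as near to miR-20b-5p as miR-20a-5p is, and was not set beside it. Whether reads of an abundant line reached a rare one through sequencing error was not tested. Of the other 4 listed arms of the cluster with a line (miR-18b-5p, miR-18b-3p, miR-92a-2-5p and miR-363-5p) none passed the filter on low counts in any fit, and none had more than 10 counts over a group.

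The comparison of IL4 with control exosomes asked which miRNAs the stimulus changed in the released vesicles. No line of either cluster was called. For miR-93-5p, which represses Cdkn1a, levels were 4737, 5948, 5706 and 4952 CPM in IL4 exosomes and 6581, 7613, 7592 and 6398 CPM in control exosomes. The groups did not overlap on this scale, and the IL4 library was the lower at 4 of 4 dates. The fitted log2 fold change, on edgeR's TMM scale, was -0.24 (SE 0.17, 95% confidence interval -0.62 to 0.13, adjusted p = 0.804, edgeR's quasi-likelihood test with Benjamini-Hochberg adjustment over 182 lines). For miR-106b-5p, which shares its seed, levels were 2019, 1742, 2310.1 and 2111 CPM with IL4 and 2323, 2795, 2854 and 2406 CPM in controls. These groups did not overlap either, and the fitted value was -0.18 (SE 0.19, interval -0.60 to 0.25, adjusted p = 0.862).

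miR-25-3p, a miRNA of the miR-25 seed family that represses Bcl2l11, had 3957, 6511, 4994 and 4900.4 CPM in IL4 exosomes and 5454, 7521, 8270.3 and 4867 CPM in control exosomes. These ranges overlapped (log2 fold change -0.20, SE 0.21, interval -0.66 to 0.27, adjusted p = 0.862). The passenger arm miR-106b-3p had 219.9, 388.5, 500.4 and 795 CPM against 774, 644, 643 and 547 CPM in controls (-0.29, SE 0.37, adjusted p = 0.862). So 4 of the 9 lines could be tested in exosomes, all with negative values and 0 called, where 0.549% of all tested lines were called. Their median log2 fold change was -0.22, against -0.09 over all lines tested. In CPM, 2 of these 4 lines were lower in every IL4 library than in any control library, as were 3.3% of all tested lines (6 of 182), and 0 were higher in every one, as were 2.75%. Scaled by library totals, where the median of all tested lines is at -0.25, miR-93-5p reached -0.40, and relative to that median it was at -0.15 under TMM and under library totals alike. The shares of the myeloid, erythroid, endothelial, lymphocyte, stromal and muscle, liver and gut marker lists, given above, were also lower with IL4 at 4 of 4 dates, and that of the epithelial list at 2 of 4. Their part in these differences was not tested. In bulk libraries, fewer vesicles of a cell type and less RNA per vesicle cannot be told apart.

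miR-363-3p had 1, 3, 12 and 4 counts in IL4 exosomes (19.99, 40.2, 29.1 and 52.1 CPM) and 2, 6, 6 and 0 counts in control exosomes (70.4, 110.3, 30.1 and 0 CPM). Its floor in the control library with 0 counts is 82.0 CPM, so the groups cannot be separated at this depth, and the line was too low to test within exosomes. Pooled over each group the ratio of IL4 to control was 0.742 (95% counting interval 0.356 to 1.59).

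In the cells themselves no member was called between IL4 and control either. miR-25-3p had 3694, 3312 and 2415 CPM in IL4 lysates and 5021, 4171 and 3908 CPM in control lysates. It was the 1 member whose groups did not overlap in CPM, lower at 3 of 3 dates (log2 fold change -0.29, SE 0.15, interval -0.63 to 0.05, adjusted p = 0.478). Non-overlap in that direction was seen in 15.3% of all lines tested in lysates (68 of 443), and in the other direction in 8.8% and in 0 members. miR-93-5p had 7419.7, 4775 and 3754 CPM with IL4 and 8569, 6319.6 and 5709.9 CPM in controls. The libraries of 23 January were the highest of their groups and the ranges overlapped, while the IL4 library was the lower at 3 of 3 dates (-0.19, SE 0.20, interval -0.65 to 0.27, adjusted p = 0.820). miR-106b-5p had 2299, 1455 and 1348 CPM with IL4 and 2414, 1844 and 1648 CPM in controls, again overlapping, with a fitted value of -0.03 (SE 0.19, interval -0.47 to 0.42).

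For the rarer arms the intervals were wider. The values were -0.19 (SE 0.21) for miR-106b-3p, -0.06 (SE 0.24) for miR-93-3p and -0.29 (SE 0.58) for miR-25-5p, whose interval ran from -1.62 to 1.04. Those of the X chromosome lines were 0.53 (SE 0.66) for miR-106a-5p and 0.12 (SE 0.64) for miR-20b-5p. Over both clusters 8 of 9 lines could be tested and 0 were called in either direction, where 7.22% of all tested lines were called (26 higher, 5.87%, and 6 lower, 1.35%; 8 higher and 6 lower when scaled by library totals). The 6 miR-106b-25 lines had a median of -0.19 and no positive value, against a median of 0.00 over all lines. The miR-17-92 list includes miR-19b-3p and miR-92a-3p, which the miR-106a-363 cluster also gives. Of its 10 tested lines 0 were called and 9 had positive values, with a median of 0.25. The values were 0.21 (SE 0.39) for miR-17-5p, 0.27 (SE 0.38) for miR-20a-5p, 0.31 (SE 0.31) for miR-19b-3p and 0.23 (SE 0.33) for miR-92a-3p. In exosomes 0 of 6 tested lines of that list were called, 3 of them with positive values. miR-363-3p was too low to test in lysates, with 12, 0 and 7 counts in IL4 lysates and 1, 3 and 1 in control lysates, and the replicates overlapped. Pooled, IL4 lysates had 4.59 times the level of control lysates (95% counting interval 1.66 to 15.7), an interval that leaves out the spread between replicates.

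The difference between the IL4 effects in exosomes and in lysates was called for none of the 7 members that could be tested in a fit of all 14 libraries (0 called, against 0% of all 338 lines; adjusted p at least 0.994). The difference was 0.11 (SE 0.24, interval -0.40 to 0.62) for miR-93-5p, 0.01 (SE 0.28) for miR-106b-5p and 0.24 (SE 0.28) for miR-25-3p. At an unadjusted p under 0.05 there were 12 lines in exosomes, 63 in lysates and 14 for this difference, with 0 members among them.

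**Figure D2:**
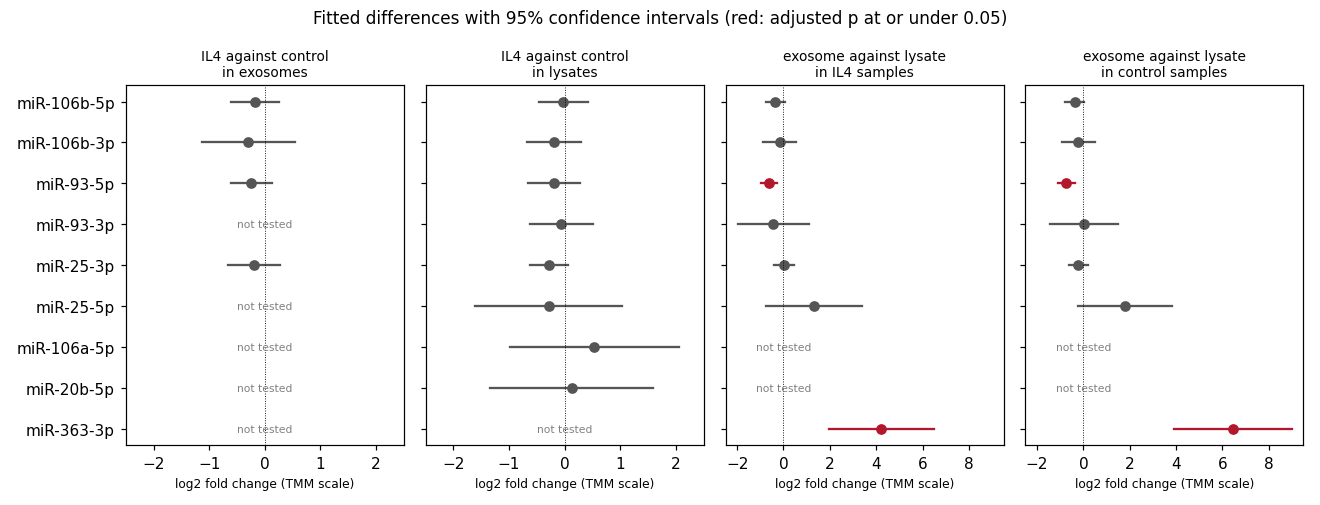
Log2 fold changes on the TMM scale with 95% confidence intervals for the 9 lines in 4 comparisons, in red where the adjusted p was at or under 0.05. The intervals of all tested lines include 0 in the comparisons of IL4 with control, and miR-363-3p and miR-93-5p are the lines called between exosomes and lysates, in IL4 and in control samples.

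Between exosomes and lysates the largest fitted difference among the members was in miR-363-3p. It stood at 35.4 ± 13.9 CPM in IL4 exosomes (SD, n = 4) and at 1.14 ± 1.04 CPM in IL4 lysates (n = 3), where the libraries had 2.05, 0 and 1.36 CPM. In control exosomes it averaged 52.7 ± 48.0 CPM (n = 4) against 0.266 ± 0.152 CPM in control lysates (n = 3), with 0.174, 0.442 and 0.181 CPM. Many of these values were at or under the floor of 3 counts. They were all 3 control lysates (1, 3 and 1 counts) and control exosome replicates 1 and 4 (2 and 0). IL4 exosome replicates 1 and 2 (1 and 3 counts) and IL4 lysate replicate 2 (0) were so too. With IL4 every exosome library lay above every lysate, and in controls 3 of 4 did, the exception being the library with 0 counts. At the depths of the exosome libraries any count of this line lies above every lysate. This separation was therefore set by depth and is no support for the difference. The fitted log2 fold change of exosomes over lysates was 4.22 in IL4 samples (SE 1.06, interval 1.95 to 6.48, adjusted p = 0.00457) and 6.46 in controls (SE 1.19, interval 3.91 to 9.02, adjusted p = 0.000467; edgeR, 338 lines). Pooled counts gave ratios of 25.6 with IL4 (20 against 19 counts, 95% counting interval 13.0 to 50.8) and 159 in controls (14 against 5 counts, interval 54.0 to 563). The call held in all 21 alternative settings of each comparison, with an adjusted p of at most 0.0162 in IL4 samples and 0.00400 in controls. These settings reuse the same few counts, and some leave out only a library of the other treatment, so they add no separate support. The line passed the filter on low counts through its exosome libraries, so its being tested is no support for the difference. The erythroid, endothelial, lymphocyte, epithelial, stromal and muscle, liver and gut marker lists, given above, took a higher share in exosomes too (the lowest exosome library above the highest lysate in each list). The epithelial lines did not all go that way. Of 5 tested, 2 were called higher in each comparison, with median log2 fold changes of 0.38 with IL4 and 0.16 in controls. With IL4 1 of them had a negative value, and in controls 2 did. The part of these lists in the result for miR-363-3p was not tested.

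Of the guide arms of the miR-106b-25 cluster, miR-93-5p was called between exosomes and lysates on the TMM scale alone. miR-93-5p averaged 5336 ± 582 CPM in IL4 exosomes and 5316 ± 1892 CPM in IL4 lysates, and 7046 ± 647 against 6866 ± 1506 CPM in control exosomes and lysates, so the CPM overlapped. On the TMM scale it was called lower in exosomes, by a log2 fold change of -0.62 with IL4 (SE 0.17, adjusted p = 0.00667) and -0.73 in controls (SE 0.17, adjusted p = 0.00205). That call depends on the scaling and on single libraries. It was lost in IL4 samples without IL4 exosome replicate 2 or 4, IL4 lysate replicate 1 or 2, or control lysate replicate 3 (edgeR adjusted p = 0.0588 to 0.268), and in controls without control exosome replicate 1 or 3 (0.0947 and 0.0668). It was also lost with RLE scaling (-0.36, adjusted p = 0.138, in IL4 samples and -0.35, 0.158, in controls) and with DESeq2 (-0.36, 0.0793, and -0.35, 0.0998). With library totals the values were 0.0058 and 0.038, and the median of all lines moved by 0.70 and 0.80. Relative to the median of all tested lines, miR-93-5p was at -0.61 to -0.68 in IL4 samples and at -0.55 to -0.59 in controls under TMM, RLE, DESeq2 and library totals.

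miR-25-3p lay near the median of all lines. Its level was 5091 ± 1056 CPM in IL4 exosomes against 3141 ± 657 CPM in IL4 lysates, without overlap, and 6528 ± 1626 CPM in control exosomes against 4367 ± 582 CPM in control lysates, with overlap. On the TMM scale it had values of 0.03 (SE 0.20, adjusted p = 0.921) and -0.21 (SE 0.20, adjusted p = 0.388), and with library totals 0.70 (adjusted p = 0.0435) and 0.58 (adjusted p = 0.0888). Relative to the median line these were 0.04 and -0.03 under TMM and 0.02 and -0.04 under library totals. miR-106b-5p lay between, at -0.36 (SE 0.19, adjusted p = 0.143) and -0.37 (SE 0.19, adjusted p = 0.122), and turned to 0.27 and 0.40 with library totals. Of the 7 members tested in each comparison 1 was called higher and 1 lower, in IL4 and in control samples, whereas 49.1% and 50.9% of all tested lines were called in either direction. Over all lines 30.2% were higher and 18.9% lower with IL4, and 29.3% and 21.6% in controls (with library totals, 127 higher and 12 lower of 338, and 126 and 16). In CPM, of the members tested, 2 lay higher in every exosome library with IL4 (miR-25-3p and miR-363-3p) and 1 in controls (miR-106b-3p), where 28.7% and 27.2% of all tested lines did, and 0 of the 7 tested lay lower in either, against 7.69% and 10.4%. For miR-363-3p any count in an exosome library lies above every lysate, so its place here is set by depth. The rare passenger arms had wide errors, with 1.31 (SE 0.97, adjusted p = 0.280) and 1.80 (SE 0.96, adjusted p = 0.126) for miR-25-5p on the TMM scale. In controls miR-25-5p was called with DESeq2 (2.16, adjusted p = 0.0463), and without control exosome replicate 2, which held 13 of its 22 counts, edgeR gave 0.49 (adjusted p = 0.715).

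**Figure D3:**
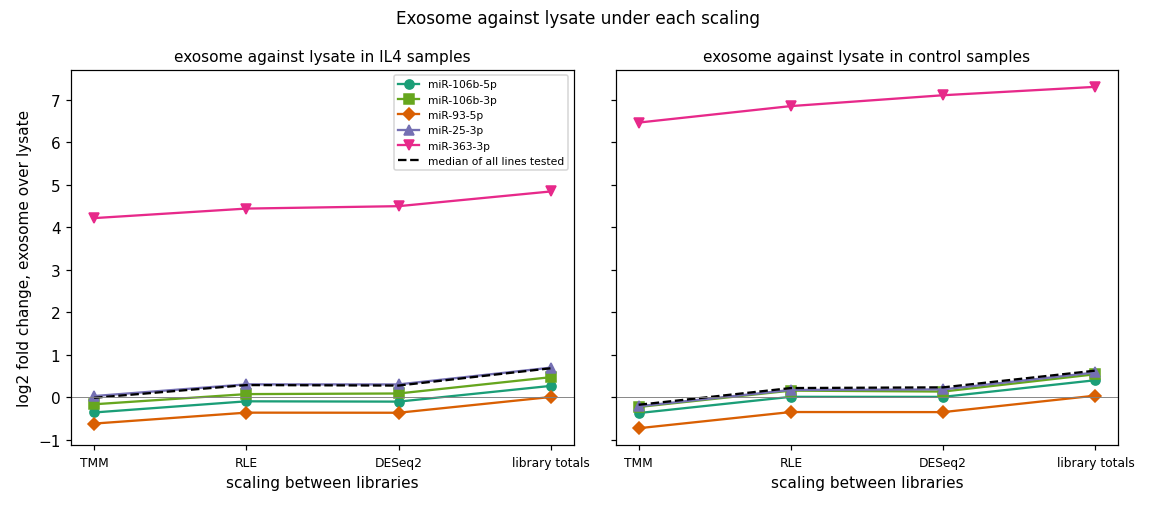
Log2 fold change of exosomes over lysates (vertical axis) for 5 lines under 4 ways of scaling libraries (horizontal axis), in IL4 samples (left) and controls (right), with the median of all tested lines dashed. miR-93-5p stays below the median line under each scaling while its sign changes with library totals, and miR-363-3p stays above 4 throughout.

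Ratios taken within a library need no scaling between libraries. The ratio of miR-25-3p to miR-93-5p counts was 0.835, 1.09, 0.875 and 0.989 in IL4 exosomes, against 0.498, 0.694 and 0.643 in IL4 lysates. It was 0.829, 0.988, 1.09 and 0.761 in control exosomes, against 0.586, 0.660 and 0.684 in control lysates. Every exosome library lay above every lysate. On the log2 scale the difference was 0.64 with IL4, or 1.56-fold (exact permutation test, two-sided, p = 0.0286, the smallest this design allows; adjusted p = 0.166 over 29 ratio tests), and 0.50 in controls, or 1.41-fold (exact permutation p = 0.0571, adjusted p = 0.276). Neither passed the correction.

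The ratio of miR-106b-5p to miR-93-5p was 0.353, 0.367, 0.376 and 0.376 in control exosomes, against 0.282, 0.292 and 0.289 in control lysates. These groups did not overlap (log2 difference 0.36, exact permutation p = 0.0286, adjusted p = 0.166). With IL4 the exosomes had 0.426, 0.293, 0.405 and 0.426 and the lysates 0.310, 0.305 and 0.359, which overlapped through exosome replicate 2 (log2 difference 0.25, exact permutation p = 0.229). Between IL4 and control lysates this ratio did not overlap either (log2 difference 0.17, exact permutation p = 0.1, the smallest that 3 against 3 libraries allow). The paralog ratio of miR-363-3p to miR-25-3p had a log2 difference of 5.06 between exosomes and lysates with IL4 and 6.57 in controls (exact permutation p = 0.0286 for each, adjusted p = 0.166). Where a library had 0 counts of miR-363-3p or miR-106a-5p the ratio was set by the added 0.5 count. For miR-363-3p this befell control exosome replicate 4 (log2 ratio -8.48) and IL4 lysate replicate 2 (-14.67). The separation of the control groups rests on the first value, so the p-value in controls is not read as support. The second enters the size of the difference with IL4. There any count in an exosome library puts the ratio above that of every lysate, so the p-value with IL4 is not read as support either. For miR-106a-5p the added 0.5 count set the ratio in 7 of 8 exosome libraries, so its ratios to miR-106b-5p are not read.

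**Figure D4:**
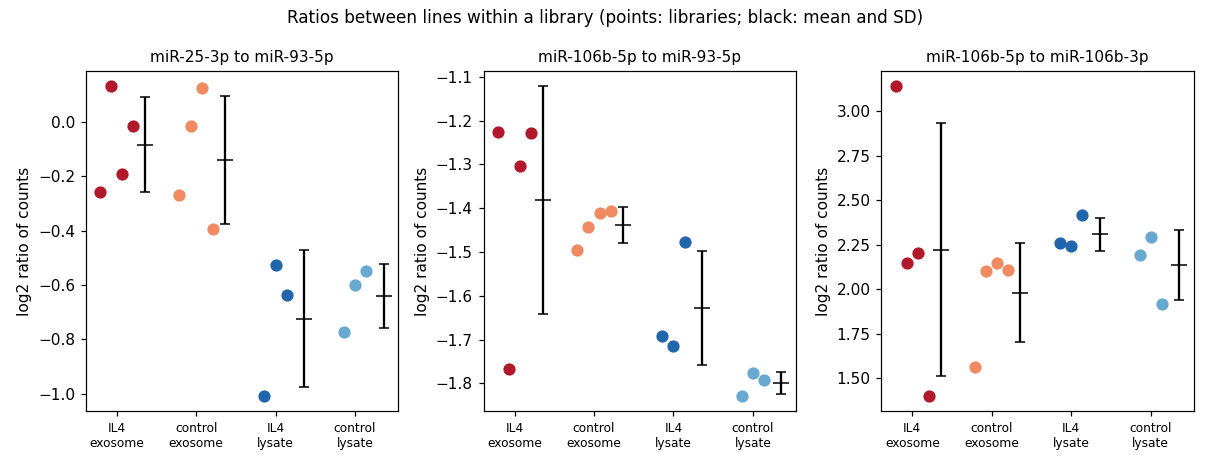
Log2 ratios of counts within each library for miR-25-3p to miR-93-5p, miR-106b-5p to miR-93-5p and miR-106b-5p to miR-106b-3p, by group, with the mean and SD in black beside the points. The first ratio lies higher in all 8 exosome libraries than in any lysate, and the third overlaps among all groups.

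Read by seed, the lines tested in the fit of all libraries went different ways between exosomes and lysates. Of the 4 tested lines with the miR-17 seed (miR-93-5p, miR-106b-5p, miR-17-5p and miR-20a-5p), 3 were called lower in exosomes in IL4 samples and 3 in controls, and 0 higher, with medians of -0.99 and -0.91 against -0.01 and -0.18 over all lines. miR-17-5p had -1.35 (SE 0.32) with IL4 and -1.40 (SE 0.32) in controls, and miR-20a-5p -1.39 (SE 0.30) and -1.10 (SE 0.30). The calls became 2 and 1 with RLE scaling or DESeq2 and 0 and 0 with library totals, where miR-106b-5p was positive in both. Of the 5 tested lines with the miR-25 seed, 3 were called higher in IL4 samples and in controls and 0 lower, under TMM, RLE and DESeq2, and 4 with library totals. The 3 were miR-363-3p, miR-32-5p (2.28, SE 0.46 and 2.85, SE 0.47) and miR-92b-3p (2.53, SE 0.65 and 3.12, SE 0.68). The other two, miR-25-3p and the abundant miR-92a-3p (0.12, SE 0.24 and 0.18, SE 0.24), did not pass under TMM. The miR-17-92 list includes miR-19b-3p and miR-92a-3p, which the miR-106a-363 cluster also gives. Of its 9 tested lines, 5 were called lower with IL4 and 2 in controls. Those with IL4 were miR-17-5p, miR-20a-5p, miR-18a-5p at -1.42, miR-19a-3p at -1.43 and miR-19b-3p at -1.12. The counts became 4 and 1 with RLE scaling and 5 and 1 with DESeq2, the 1 in controls being miR-17-5p. With library totals 0 were lower in either, and 1 was called higher in controls. Beside these counts, 30.2% and 29.3% of all tested lines were called higher in exosomes in IL4 samples and in controls, and 18.9% and 21.6% lower. miR-363-3p is among the 3 higher lines of its seed and passed the filter only through exosomes. The IL4 and control comparisons come from 1 fit of all 14 libraries, with a common scaling and spread.

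Likeness was taken as the Pearson correlation of log2 TMM-scaled CPM over the 14 libraries, not of the plain CPM given above. Among 331 tested lines that are not members, those closest to miR-93-5p, the most abundant member, were miR-322-5p (0.905), let-7i-5p (0.897) and miR-210-3p (0.894). Within the 8 exosome libraries these correlations were 0.02, -0.17 and 0.64, and within the 6 lysates 0.66, 0.53 and 0.73. For miR-363-3p the closest lines were miR-204-5p (0.949), miR-9b-3p (0.865) and miR-335-5p (0.850), with 0.90, 0.83 and 0.74 within exosomes and -0.43, -0.49 and -0.62 within lysates. All these values share the libraries' depth and the gap between the compartments.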

How the data were processed

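Small RNA libraries (8 exosome, 6 lysate) were made with the PerkinElmer NextFlex kit, per the labels' protocols. The deposited table gives raw counts per mature miRNA line, with no normalization. The submitters' processing notes name cutadapt and mm10, a mouse genome build. The names of aligner, counter and miRNA annotation were not given in the sources used here. Trimming and counting decide how near-copies share reads and could not be changed. Columns were matched by sample title, and 0 were left unused. Every pair of libraries in a group differed beyond sampling noise (chi-square over its degrees of freedom at least 21.0).

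edgeR 4.0.16 in R 4.3.3 (filterByExpr, TMM, quasi-likelihood test, two-sided) was fitted on the whole table, with Benjamini-Hochberg adjustment over all lines tested and a threshold of 0.05. The 8 exosome and the 6 lysate libraries were fitted separately for IL4 against control, and all 14 together for the other comparisons. A standard error (SE) was taken as the size of the log2 fold change divided by the root of its F statistic. Ratios used counts plus 0.5 and exact permutations, for pairs of lines whose counts summed to at least 10 in each library. Pooled intervals are exact at 95%. Scripts were tested on simulated data.

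Titles carry dates, and within a compartment each date holds 1 IL4 and 1 control library. Deviations from group means of same-date libraries correlated at 0.19 to 0.72 in exosomes and 0.26 to 0.61 in lysates (for 16 March exosomes and 14 March lysates another date correlated more highly, at 0.26 and 0.32). Dates were taken as pairs where libraries are compared by date. The main fits and the ratio tests left the pairs out, so their p-values are unpaired, and the date as a block was an alternative. Other alternatives were RLE factors (edgeR), library totals, DESeq2 1.42.0, no filter or one of 50 CPM, near-copies merged (miR-106a-5p with miR-17-5p, miR-20b-5p with miR-20a-5p), 1 fit of all libraries and each library left out. Leaving out both exosome libraries of 25 January, the date with the most epithelial marker reads, was chosen after seeing the data. Members and lists were chosen with earlier results of these data known. Named lines are the 9 members, called lines of the paralog and seed lists, 4 abundant lines of the miR-17-92 list and the 3 lines most like the top member of each cluster. A further 4 miRNAs of the lists are not analysed here.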

Additional observations from a re-analysis of the deposited data

Results flagged for a closer look

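In groups of 4 libraries, 2 ratios had a library far from the other 3 (chance alone gives about 1 in 20 such groups). For miR-106b-5p to miR-93-5p, IL4 exosome replicate 2 had a log2 ratio of -1.77, from 130 and 444 counts, while the other 3 lay between -1.30 and -1.23. For miR-106b-5p to miR-106b-3p, control exosome replicate 1 had 1.56, from 66 and 22 counts, while the other 3 lay between 2.10 and 2.15. That library has the smallest total of all, 28417 counts. These readings were taken over 24 sets of 4 values.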

How the results depend on the processing

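Between IL4 and control, 0 members were called in exosomes, in lysates and in the test of their difference under every alternative run. With the date as a replicate block, calls over all lines moved to 50 from 32 in lysates, and the difference of IL4 effects to -0.0042 for miR-106b-5p and -0.0016 for miR-106b-3p. The lowest edgeR adjusted p of a member with the block was 0.428 in exosomes (miR-93-5p, 0.804 without it) and 0.188 in lysates (miR-25-3p, 0.478 without it). The block changed no member's call. No paired analysis was possible because exosomes and lysates share no date in the comparison of the compartments. Calls over all lines in exosomes (1) were 0 with library totals, 6 with DESeq2, 12 with no filter and 0 to 2 with a library left out (0 without IL4 exosome replicate 3 or control exosome replicate 2 or 3, 2 without IL4 exosome replicate 1 or control exosome replicate 4). In lysates they were 14 with library totals, 4 in 1 fit of all libraries, 7 and 10 without IL4 lysate replicates 2 and 3, 2 and 13 without control lysate replicates 2 and 3, 34 at most with a library left out. The difference of IL4 effects had 3 with no filter. Members called between exosomes and lysates (2) were 1 with RLE scaling in each comparison, 1 with DESeq2 in IL4 samples (in controls DESeq2 kept 2, with miR-25-5p in place of miR-93-5p), 1 with library totals in controls, 4 in each with near-copies merged (the merged lines hold almost wholly miR-17-5p and miR-20a-5p) and 1 to 2 with a library left out. Signs changed as follows; of the called values this befell miR-93-5p alone. In exosomes miR-106b-3p was 0.10 without both libraries of 25 January, and in lysates miR-20b-5p was -0.13 with library totals. For exosomes over lysates in IL4 samples, miR-106b-3p was 0.074 (RLE), 0.47 (library totals) and 0.088 (DESeq2). With library totals miR-106b-5p was 0.27, miR-93-5p 0.0058 and miR-93-3p 0.25, and miR-25-3p was -0.22 with no filter. In controls, RLE, library totals and DESeq2 gave 0.010, 0.40 and 0.0090 for miR-106b-5p, 0.16, 0.54 and 0.13 for miR-106b-3p and 0.17, 0.58 and 0.18 for miR-25-3p. There miR-93-5p was 0.038 with library totals and miR-93-3p -0.47 with no filter. For the difference of IL4 effects the same 3 settings gave -0.11, -0.13 and -0.11 for miR-106b-5p, -0.082, -0.069 and -0.046 for miR-106b-3p and -0.014, -0.032 and -0.015 for miR-93-5p, and miR-106b-5p was -0.036 under the 50 CPM filter and -0.086 without 25 January. Adding 1 count in place of 0.5 gave log2 ratio differences of -0.17 for miR-93-5p to miR-93-3p (IL4 exosomes minus IL4 lysates) and -0.043 for miR-363-3p to miR-25-3p (IL4 minus control exosomes). With each library left out, values in exosomes ran from -0.17 to 0.082 for miR-106b-5p and -0.14 to 0.043 for miR-25-3p. They ran from -0.19 to -0.056 for miR-93-5p and -0.52 to -0.030 for miR-106b-3p. The values with all libraries, -0.24 for miR-93-5p, -0.20 for miR-25-3p and -0.18 for miR-106b-5p, lie below those ranges. The median of all tested lines moved likewise, from -0.09 to between -0.03 and 0.08. In lysates the members' values ran from -0.19 to 0.038 for miR-106b-5p, -0.22 to 0.15 for miR-93-3p, -1.01 to 0.13 for miR-25-5p and -0.27 to 0.97 for miR-20b-5p. For exosomes over lysates the ranges were -0.34 to 0.12 for miR-106b-3p and -0.64 to 0.16 for miR-93-3p in IL4 samples. In controls they were -0.26 to 0.051 for miR-106b-3p, -0.26 to 0.11 for miR-25-3p and -0.29 to 0.55 for miR-93-3p. For the difference of IL4 effects they were -0.16 to 0.27 for miR-106b-5p, -0.14 to 0.35 for miR-106b-3p, -0.82 to 0.11 for miR-93-3p, -1.22 to 0.84 for miR-25-5p and -0.037 to 0.41 for miR-93-5p. For log2 ratios between IL4 and control exosomes they were -0.063 to 0.52 (miR-106b arms), -0.62 to 0.82 (miR-93 arms), -0.11 to 1.08 (miR-25 arms), -0.029 to 0.14 (miR-25-3p to miR-93-5p) and -0.34 to 0.50 (miR-363-3p to miR-25-3p). Between IL4 and control lysates they were -0.40 to 0.51 (miR-25 arms), -0.18 to 0.057 (miR-25-3p to miR-93-5p) and -0.53 to 0.27 (miR-20b-5p to miR-106a-5p). Between exosomes and lysates they were -0.39 to 0.19 (miR-106b arms) and -0.70 to 0.58 (miR-93 arms) with IL4, and -0.85 to 0.19 (miR-93 arms) in controls. The causes were not tested. A library left out of a group of 3 leaves 2, and exosome depth limits the lines under about 100 CPM.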
